A study of Mus musculus with 5 samples.

Results

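The PGC-1, PPAR and ERR oxidative regulators are 10 genes that set the level of mitochondrial and fat-burning genes: the coactivators Ppargc1a, Ppargc1b and Perm1, the nuclear receptors Ppara, Ppard, Esrra, Esrrb and Esrrg, and the factors Nrf1 and Tfam. They were taken by symbol from a table of 35275 mouse gene identifiers, and all 10 were found. The muscle came from female NOD scid gamma (NSG) mice, an immunodeficient strain, labelled wild type and 12 weeks old. The mice had been given extracellular vesicles (EV) by tail vein, from a source labelled MCF-10A/miR122, in 10 injections of about 10 µg at a rate of 2 per week over 5 weeks, and gastrocnemius (GA) muscle of the calf was taken 2 days after the last injection. MCF-10A is a non-tumorigenic human breast epithelial line, and the labels give the name of the cells with no further detail. The 5 samples, numbered 1 to 5, form 1 group, so levels and their spread are described, without a comparison to untreated muscle. Whether each sample is a separate animal is not labelled, so any p-value measures only the spread between these samples, which may be technical.

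PGC-1 coactivators bind no DNA themselves. They are recruited by nuclear receptors, among them the fatty-acid-activated PPARs and the orphan estrogen-related receptors (ERRs), and they raise transcription of genes for fatty acid oxidation, the citric acid cycle and the respiratory chain. Nrf1 here is nuclear respiratory factor 1, which acts on nuclear genes of mitochondria, and Tfam packages mitochondrial DNA and starts its transcription. In muscle the network is known for its part in endurance training and in the oxidative character of slow fibres.

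Promoter letters are shown for the 4 members in which a searched motif was found, since members of this network are known to act on one another's genes. Windows from 250 bases before to 50 bases after a RefSeq start (GRCm38.p6) were matched for 9 of the 10 members, 14 windows in all, because some genes have several starts. Of the 32851 windows of the genome, the ERR core site AAGGTCA was in 4.72%, the palindromic NRF1 site in 0.971%, the GABP site ACTTCCGG in 3.89% and the MEF2 site in 0.164%, with both strands searched (the NRF1 and MEF2 letters are those in capitals in Ppara and Esrrg). Each was in 1 of the 14 member windows, and AAGGTCA contains the shorter nuclear receptor site AGGTCA (16.3% of windows, found in the same 1 member window). No member window held TCAAGGTCA (0.423% of windows), the PPAR direct repeat of AGGTCA spaced by 1 base (0.0396%), the CRE TGACGTCA (1.79%) or the E-box CACGTG (7.15%). Capitals mark the motif, which for Perm1 and Tfam is on the opposite strand. The Perm1, Esrrg and Ppara stretches hold no exon of the GENCODE annotation, and the Tfam stretch of 30 bases lies in an annotated exon.
Perm1, chr4:156215677-156215867, plus strand: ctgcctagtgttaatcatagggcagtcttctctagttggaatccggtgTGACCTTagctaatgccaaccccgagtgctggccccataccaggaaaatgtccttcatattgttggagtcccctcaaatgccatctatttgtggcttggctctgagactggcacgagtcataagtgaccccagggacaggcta
Esrrg, chr1:187608900-187609005, plus strand: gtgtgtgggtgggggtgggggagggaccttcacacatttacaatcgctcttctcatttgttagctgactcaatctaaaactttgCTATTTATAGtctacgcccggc
Ppara, chr15:85735714-85735775, plus strand: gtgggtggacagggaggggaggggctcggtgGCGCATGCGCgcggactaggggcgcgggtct
Tfam, chr10:71238073-71238102, minus strand: cctgccgcggaCCGGAAGTccgggcttccc
The first base of the motif lies 202 bases before the start in Perm1, 22 before one of the starts of Esrrg, 31 in Ppara and 47 in Tfam. A match describes letters and shows neither binding nor a cause of any level below.

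The libraries held 16674504 to 25407988 reads. Levels are in FPKM, the reads of a gene scaled by its length and by the library total. Of 10 fast fibre markers, 9 were abundant in all 5 libraries (Tnnt3 at 12575 to 20133 FPKM, Mylpf at 8969 to 12456, Tnni2 at 7336 to 11522). Tnnc2, the fast troponin C, was listed at only 0.394 to 4.67, far below the other fast troponins Tnnt3 and Tnni2. The reason was not tested, so the level of Tnnc2 is uncertain. Library 2 had the highest level of 9 of 10 slow fibre markers (23.2% of all genes) and library 3 of all 10 regenerating fibre markers and all 10 measured macrophage markers (37.4%). In library 3 the embryonic actin Actc1 was at 116 FPKM against 23.3 to 75.6, Myog at 30.1 against 6.45 to 11.4, Ankrd1 at 30.2 against 3.56 to 6.42, Lyz2 at 172 against 29.7 to 46.8, C1qa at 58.4 against 21.5 to 28.9 and C1qc at 32.4 against 11.6 to 15.2. The 4 measured erythroid markers were also highest there, led by Hba-a1 (326 ± 155 FPKM), Hbb-bs (151 ± 79.1) and Hbb-bt (51.0 ± 49.9). So were 7 of 9 fibroblast markers, among them Col1a1 (311 ± 91.6) and Col1a2 (289 ± 70.8). After median-of-ratios scaling 5 of the 9 were highest in library 3 (27.0% of all genes). Dcn (237 ± 41.8), another fibroblast marker, was highest in library 2. Of 8 endothelial markers 4 were highest in library 2 (23.2% of all genes), among them Cdh5 (26.7 ± 3.24) and Pecam1 (24.7 ± 3.05), while Egfl7 (14.8 ± 3.32; SD, n = 5) was highest in library 1. Under median-of-ratios scaling 2 of the 8 were highest in library 2 (13.6%) and 3 in library 4 (27.5%). A level in whole muscle cannot tell fewer cells of a type from less RNA per cell.

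Perm1 and Esrra were by far the most abundant of the 10 regulators. Perm1 was at 74.2 ± 13.7 FPKM and Esrra at 68.8 ± 7.68 (SD, n = 5), at percentiles 93.6 and 93.2 of the 10710 genes with a mean of 1 FPKM or more. Ppard followed at 14.0 ± 1.04 FPKM and Tfam at 9.05 ± 0.479. Below them Esrrg (3.36 ± 1.4), Nrf1 (3.08 ± 0.107), Ppargc1a (2.99 ± 0.665), Ppargc1b (2.68 ± 0.204) and Esrrb (2.52 ± 1.07) lay close together, and Ppara was lowest at 1.22 ± 0.334, at percentile 5.01. The steps from Esrra to Ppard, from Ppard to Tfam, from Tfam to Esrrg and from Esrrb to Ppara were larger than the SD of the within-library difference and held in 5 of 5 libraries. Neighbours from Esrrg down to Esrrb did not differ beyond their spread, nor did Perm1 and Esrra, of which Perm1 was higher in 3 of 5 libraries.

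**Figure D1:**
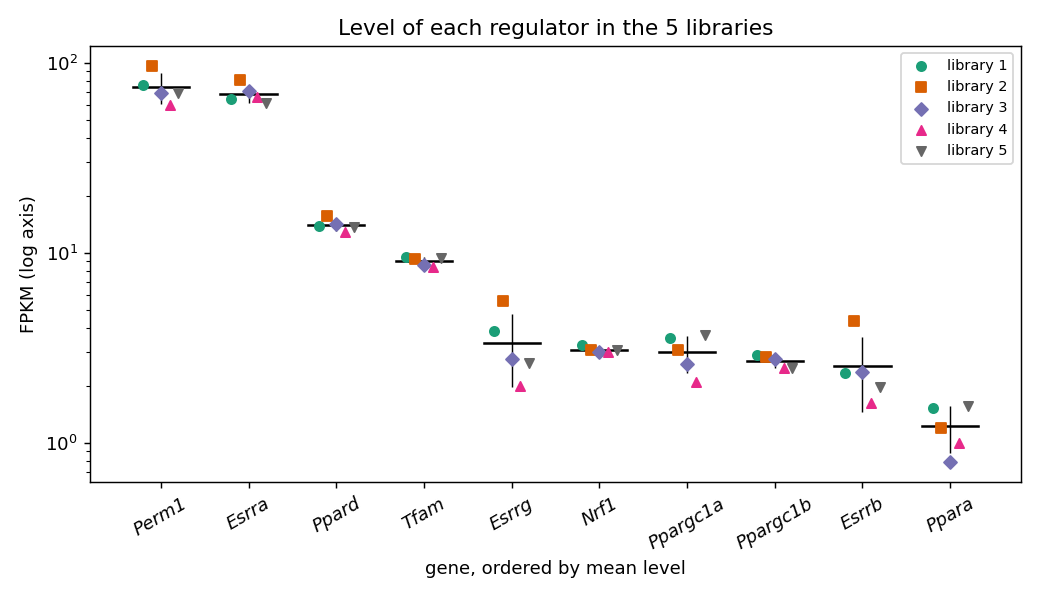
FPKM (log axis) of the 10 regulators, ordered by mean level, with 1 symbol per library, a horizontal bar at the mean and a vertical line of 1 SD (n = 5). Perm1 and Esrra lie between 59.8 and 96.4 FPKM, and the 6 lowest genes lie between 0.791 and 5.56.

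Among the coactivators, Perm1 was far more abundant than the PGC-1 genes. Ppargc1a encodes PGC-1alpha, the inducible coactivator of mitochondrial biogenesis. It lies on chromosome 5 (51454250 to 51567726 in mm10, like all positions of genes here) and was at 3.54, 3.06, 2.60, 2.08 and 3.69 FPKM in libraries 1 to 5. Libraries 5 and 1 were high and library 4 low, with the highest value 1.77 times the lowest. Ppargc1b, which encodes the related PGC-1beta, was at 2.88, 2.83, 2.77, 2.46 and 2.47 FPKM. Its libraries lay within 1.17-fold of each other. Perm1, a muscle protein induced by PGC-1 and ERR, is on chromosome 4 (156215868 to 156221307) and was at 76.4, 96.4, 69.5, 59.8 and 68.9 FPKM. Library 2 stood 1.26-fold above the next library and library 4 was lowest (library 3 under the scaling described further on). Pprc1, the third PGC-1 family gene, was at 3.39 ± 0.71 FPKM, so that Ppargc1a took 32.7% ± 3.27 and Pprc1 37.2% ± 3.45 of the family's summed FPKM (SD, n = 5), and Ppargc1b from 24.0% to 33.3%.

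Of the PPAR receptors, the delta form prevailed. Ppard, the PPAR known for its part in muscle fat oxidation (chromosome 17, 28232700 to 28301474), was at 13.9, 15.6, 14.1, 12.8 and 13.7 FPKM in libraries 1 to 5. The range was narrow, with library 2 highest. Ppara, the form best known from liver (chromosome 15, 85734983 to 85802819), was at 1.53, 1.20, 0.791, 0.996 and 1.56 FPKM. Libraries 5 and 1 were highest, as for Ppargc1a, and library 3 was lowest with 45 reads; counting error alone gives a coefficient of variation of 10.6% for this gene. Ppard took 82.0% ± 2.02 of the summed FPKM of the PPAR genes, Pparg, the adipocyte form, 10.9% ± 3.22 and Ppara 7.15% ± 2.04. The share of Pparg was highest, 16.2%, in library 3, where 6 of 6 white adipocyte markers were also highest under both scalings. Of all genes 37.4% were highest there in deposited FPKM and 27.0% after median-of-ratios scaling. Cfd was at 203 against 29.8 to 109 FPKM, Adipoq at 33.6 against 3.55 to 14.0 and Cidec at 19.8 against 2.92 to 7.32. The summed level was 291 against 41.7 to 143, with none of the markers at 0. The part of fat cells in the share of Pparg was not tested.

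Of the ERR receptors, Esrra took 92.3% ± 2.20 of the family's summed FPKM (SD, n = 5; 89.1% in library 2 to 94.9% in library 4). Esrra encodes ERRalpha, a main DNA-binding partner of PGC-1alpha, and lies on chromosome 19 (6910977 to 6921813). It was at 64.7, 81.0, 71.0, 66.2 and 61.1 FPKM in libraries 1 to 5, with library 2 highest at 1.14 times the next. The annotation places Trmt112 on the other strand with 73 shared exon bases, and without a stated strand setting reads there cannot be assigned. Esrrg, the receptor of oxidative muscle and heart (chromosome 1, 187608791 to 188214885), was at 3.86, 5.56, 2.75, 1.98 and 2.64 FPKM. Library 2 was highest and library 4 lowest, 2.80-fold apart. Esrrb, best known from pluripotent stem cells (chromosome 12, 86361117 to 86521628), was at 2.32, 4.35, 2.37, 1.61 and 1.96 FPKM. Library 2 lay 1.84-fold above the next and the other libraries lay between 1.61 and 2.37. Esrrg and Esrrb both deviated by 0.65 from their own mean in library 2 on the log2(FPKM + 1) scale, and both were lowest in library 4.

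Nrf1 and Tfam varied least of the 10 regulators against the abundance trend in FPKM as deposited. After median-of-ratios scaling only coefficients of variation are given. These were 7.61% for Nrf1 and 8.23% for Tfam, above the 2.63% of Ppargc1b and the 4.97% of Ppard. Nrf1 (chromosome 6, 30047988 to 30153458) was at 3.26, 3.06, 3.01, 2.99 and 3.06 FPKM in libraries 1 to 5, a range of 1.09-fold. Its coefficient of variation of 3.48% was below the 6.20% that counting error alone gives, and its variance, set against the trend at its abundance, lay at percentile 0.21 of all tested genes. Tfam (chromosome 10, 71225464 to 71238280) was at 9.47, 9.30, 8.64, 8.44 and 9.42 FPKM, with a coefficient of variation of 5.30% against 3.56% from counting. The variance of Tfam lay at percentile 3.80 and that of Ppargc1b at 5.01.

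The spread of 7 of the 10 members exceeded counting error in a chi-square test on reads recovered from the FPKM (Benjamini-Hochberg, 0.05), while 88.1% of all 10706 genes tested did so. Ppargc1b, Nrf1 and Tfam did not pass. With median-of-ratios library sizes the count was again 7 (85.1% of all genes), with Tfam in and Ppard out. Esrrb and Esrrg had the largest coefficients of variation, 42.3% and 41.8%, against 6.75% and 5.21% from counting. Ppara (27.5% against 10.6%), Ppargc1a (22.2% against 4.94%), Perm1 (18.5% against 1.29%), Esrra (11.2% against 1.77%) and Ppard (7.43% against 3.27%) followed. Over all genes the median was 16.3%, against 5.08% from counting. Without library 2 the value was 17.2% for Esrrb, 27.7% for Esrrg, 9.94% for Perm1, 6.26% for Esrra and 4.24% for Ppard.

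**Figure D2:**
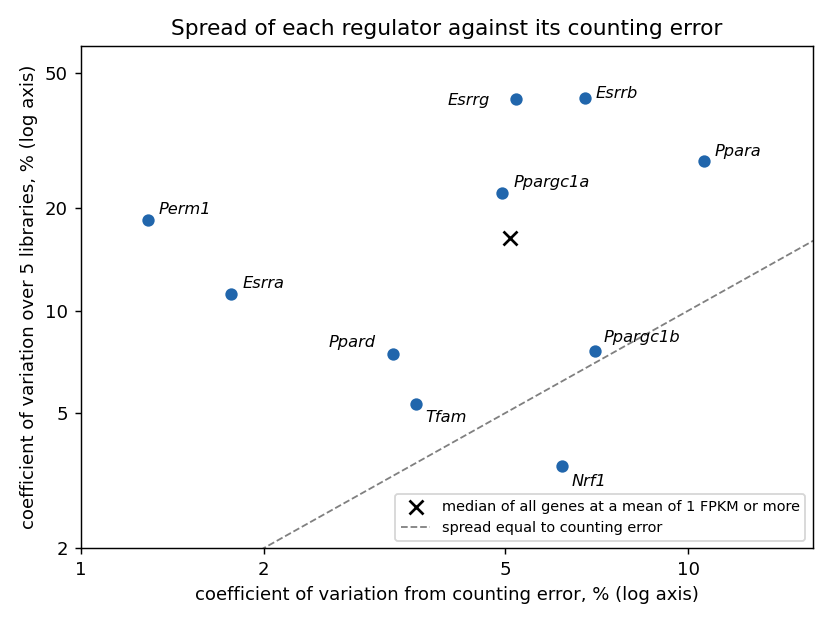
Coefficient of variation of each regulator over the 5 libraries against the value expected from counting error (both in %, log axes); the cross marks the medians over all genes and the dashed line equality. Nrf1 lies below the line, Ppargc1b near it, and Esrrg and Esrrb highest at 41.8% and 42.3%.

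A stricter test asked whether a gene varied more than others of its abundance. The limma variance test called 0 of 10710 genes (0.0%) after Benjamini-Hochberg adjustment, with 616 at an unadjusted p under 0.05, and 0 of the 10 members on either count. Among members Esrrg had the highest ratio of variance to trend, at percentile 91.8 (limma, adjusted p = 0.933), and Esrrb lay at 88.5. Without library 3 the test called 4 of 10569 genes, with 562 at an unadjusted p under 0.05. Of the 10 members, 2 were at an unadjusted p under 0.05 and 0 were called. In simulated data the test called 0% of genes given 2, 4 or 8 times the usual SD, and 68% at 64 times, so it could not show moderate differences.

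Of 7 pairs compared within libraries, 6 kept one order in all 5. Perm1 exceeded Ppargc1a by a log2 ratio of 4.23 ± 0.26 (SD, n = 5, log2(FPKM + 1) scale), 18.7 to 31.5 times in FPKM. Esrra exceeded Esrrg by 4.05 ± 0.35 and Ppara by 4.98 ± 0.32. In FPKM, Esrra was 14.6 times Esrrg in library 2 and 33.4 times in library 4. Esrrg exceeded Esrrb by 0.30 ± 0.15. The log2 ratio of Ppara to Ppard was -2.77 ± 0.24 and that of Nrf1 to Tfam -1.30 ± 0.05, which had the smallest SD of the 7 ratios. For each of these the exact sign-flip permutation test (two-sided) gave p = 0.062, the smallest that 5 samples allow, and 0.0729 after Benjamini-Hochberg adjustment over the 7 pairs. Ppargc1a and Ppargc1b did not keep an order: the log2 ratio was 0.10 ± 0.24, with Ppargc1a higher in 3 of 5 libraries (exact p = 0.4375, adjusted 0.438). In FPKM, Ppargc1a was 1.5 times Ppargc1b in library 5 and 0.848 times in library 4.

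Across libraries the members followed 3 patterns, as a description. Perm1, Ppard, Esrra, Esrrb and Esrrg, 5 of the 10, were highest in library 2, where 23.2% of all genes were highest. Ppargc1a and Ppara were highest in library 5, closely followed by library 1, where 7.68% and 21.2% of all genes were highest. Ppargc1b, Nrf1 and Tfam were highest in library 1 by small margins. Library 4 was lowest for 8 of the 10, against 38.0% of all genes, and libraries 3 and 5 for 1 each (17.1% and 24.9%). Libraries 1 and 2 were lowest for 0 members (10.2% and 9.8% of all genes). With libraries scaled by the median of gene ratios, which moves all genes of library 4 up by 0.16 on the log2 scale, the same 5 genes stayed highest in library 2 (13.6% of all genes), with Ppard at 14.6 in both libraries 2 and 5, but library 4 was lowest for 3 members (18.7%) library 3 for 6 (28.6%), library 1 for 1 (18.6%) and libraries 2 and 5 for 0 (20.4% and 13.8%). Under that scaling Nrf1 was highest in library 4 (27.5%), Tfam, Ppargc1a and Ppara in library 5 (18.7%), Ppargc1b in library 1 (13.1%) and no member in library 3 (27.0%).

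**Figure D3:**
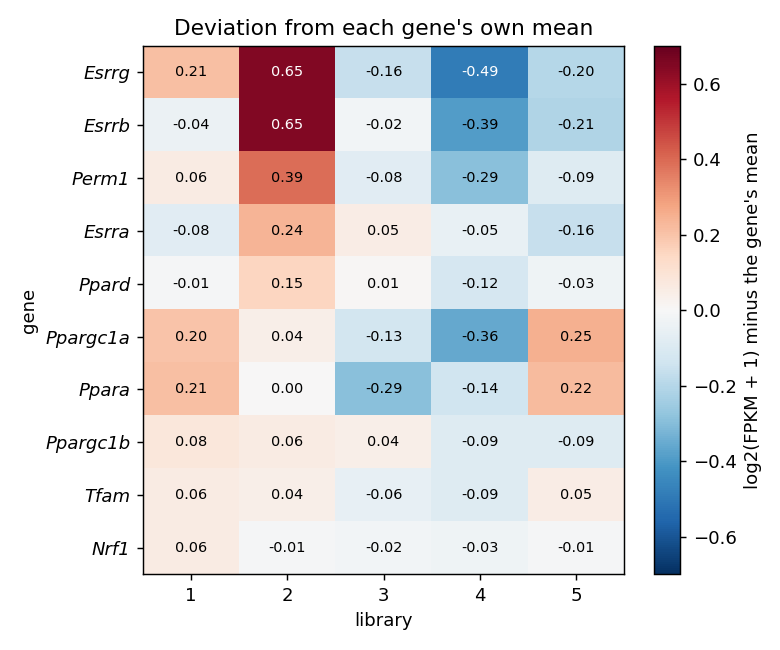
Deviation of each regulator in each library from its own mean over the 5 libraries, on the log2(FPKM + 1) scale. Esrrg and Esrrb reach 0.65 in library 2, Ppargc1a ranges from -0.36 in library 4 to 0.25 in library 5, and Nrf1 stays between -0.03 and 0.06.

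Slow fibre markers were highest in library 2, as were Perm1, Ppard and the ERRs. Their summed level was 2443, 5792, 2108, 1900.3 and 2569.7 FPKM in libraries 1 to 5, and none of the 10 was at 0. Myh2, the myosin of type IIA fibres, which are fast and oxidative, had the highest mean of this list (791 ± 361 FPKM). The sum is therefore not one of slow fibre genes alone. Myh2 was at 1406 FPKM in library 2 against 468 to 765, Tnnt1 at 975 against 294 to 415 and Myl3 at 697 against 194 to 421. The fast fibre markers summed to 49468 FPKM in library 2 and to 57928 to 77239 in the others, but Myh1, the type IIX myosin of that list, was highest in library 2, at 1954 against 628 to 1471. From high to low in deposited FPKM, the libraries ran 2, 1, 3, 5, 4 for both Esrrg and Perm1 and 2, 5, 1, 3, 4 for the slow marker sum. These orders depend on the scaling. After median-of-ratios scaling the order was 2, 5, 1, 4, 3 for Perm1 (libraries 5 and 1 at 73.6 and 73.3) and 2, 1, 5, 3, 4 for Esrrg. The slow marker sum was not rescaled. The median deviation of the slow markers after that scaling was -0.18, 1.12, -0.57, -0.36 and 0.06 in libraries 1 to 5. Its order, 2, 5, 1, 4, 3, was that of Perm1 but not of Esrrg. In deposited FPKM Esrra was lowest in library 5, which was next to library 2 in the slow marker sum. After median-of-ratios scaling Esrra was lowest in library 1 instead (62.1, against 65.3 in library 5). The part of fibre composition in the levels of Esrrg, Esrrb, Esrra, Ppard and Perm1 was not tested. Brown adipocyte markers were near 0, with a summed level of 1.18 to 3.26 FPKM over 5 genes, led by Cidea (0.905 ± 0.548 FPKM), Dio2 (0.787 ± 0.401) and Prdm16 (0.293 ± 0.0756), all under a mean of 1 FPKM.

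The PPARs act as dimers with RXR receptors, whose transcripts were more abundant than those of Ppara. Rxra was at 57.7 ± 4.72 FPKM and Rxrb at 24.8 ± 2.36 (SD, n = 5). Of the 12 related receptors and family members, 1 was highest in library 2 and 4 in library 4 (23.2% and 10.5% of all genes). Under median-of-ratios scaling 5 were highest in library 4 and 5 in library 5 (27.5% and 18.7%). The highest of them, the activity-induced orphan receptor Nr4a1, was at 47.9 FPKM in library 1 and 114 to 158 in the others, and Thra, a thyroid hormone receptor, at 40.5 ± 5.50. Nr4a3, a relative of Nr4a1, was at 6.66 FPKM in library 5 and at 0.747 to 2.02 in the others. Library 5 was thus highest for Nr4a3 and Ppargc1a, while Nr4a1 was at 158 FPKM there and at 157 in library 2. Library 1, next highest for Ppargc1a, was lowest for both receptors.

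Of the coactivators and corepressors of these receptors, 16 of 16 were measured. The acetyltransferase Kat2b was at 14.6 ± 2.38 FPKM, Med1, which links receptors to the polymerase, at 4.06 ± 0.603, and the acetyltransferases Ep300 and Crebbp at 3.70 ± 0.398 and 2.82 ± 0.495. The corepressor Ncor1 was at 8.57 ± 1.05 FPKM. Nrip1 (RIP140), a repressor of oxidative genes, ran from 1.39 in library 4 to 4.07 in library 5. Of the 16 genes, 8 were highest in library 1 (21.2% of all genes) and 9 lowest in library 4 (38.0%). Under median-of-ratios scaling 6 were highest in library 1 and 6 in library 5 (13.1% and 18.7%). Tob2, which led the list by mean (35.8 ± 17.4 FPKM), was at 58.2 in library 5 and 14.1 in library 1. Mybbp1a, a repressor of PGC-1alpha, was at 23.4 ± 2.83 FPKM.

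Among genes that act on Ppargc1a from upstream, 24 of 25 reached 1 FPKM, and 9 of these were highest in library 1 (21.2% of all genes; 5 under median-of-ratios scaling, against 13.1%). Camk2a, a calcium-dependent kinase, was at 76.0 ± 13.7 FPKM, the transcription factor Mef2c at 72.1 ± 13.9 and the calcineurin subunit Ppp3cb at 66.8 ± 10.6 (SD, n = 5). Mef2c had its highest level in library 5 (84.0) and its lowest in library 4 (49.0), as did Ppargc1a and Foxo1 (4.22 and 2.38). Of the 24 genes, 5 were highest in library 5 and 11 lowest in library 4 (7.68% and 38.0% of all genes). After median-of-ratios scaling 11 were highest in library 5 (18.7%). A link of these genes to the level of Ppargc1a was not tested. Prkag3, the fast-muscle subunit of the energy sensor AMPK, ran from 28.8 FPKM (library 2) to 95.5 (library 1), with the rest at 48.2 to 52.9. Of the AMPK catalytic subunits, Prkaa2 was at 20.0 ± 3.06 FPKM and Prkaa1 at 4.22 ± 0.934. The deacetylase Sirt1, which acts on PGC-1alpha, was at 2.24 ± 0.424 FPKM, and Camk4, the gene under 1 FPKM, at 0.0805 ± 0.0314.

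Targets of the PPARs were highest in library 2 for 12 of the 24 measured genes and in library 4 for 7 (23.2% and 10.5% of all genes), and lowest in library 3 for 17 (17.1%). Under median-of-ratios scaling 9 were highest in library 2 and 10 in library 4 (13.6% and 27.5%). Fabp3, the muscle fatty acid carrier, was at 475 FPKM in library 4 and 159 in library 3. Lpl, which frees fatty acids from lipoproteins, was at 243 FPKM in library 2 against 112 to 197, and the dehydrogenase Acadm at 194 against 98.8 to 155. Pdk4, which shuts glucose out of the mitochondrion and is a classic PPAR target, was at 75.3, 112, 44.8, 133 and 97.7 FPKM in libraries 1 to 5. Ucp3 was likewise highest in library 4 (68.0) and lowest in library 3 (30.8). Ppard was highest in library 2 and lowest in library 4 (library 3 under median-of-ratios scaling), and Ppara was highest in library 5 and lowest in library 3. The part of either receptor in the levels of these targets was not tested. Cpt1b, the muscle gatekeeper of fatty acid entry, was listed at 2.68 ± 1.17 FPKM. The annotated gene Gm44502 shares 2744 of the 3372 exon bases of Cpt1b on the same strand and was not analysed here, so the level of Cpt1b is uncertain.

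Targets of the ERRs in energy metabolism were highest in library 2 for 16 of 22 genes (23.2% of all genes) and lowest in library 3 for 17 (17.1%). In library 2 their median deviation was 0.23 (0.05 over all genes), and in library 3 it was -0.24 (0.06 over all genes). Myoglobin (Mb), the oxygen store of oxidative fibres, was at 6561 FPKM in library 2 and 2212 to 3210 in the others. Slc25a4, the ADP/ATP carrier, was highest in library 4 at 2249 FPKM and lowest in library 3 at 1637. Atp5b, a subunit of ATP synthase, was at 2145 FPKM in library 2 and 1506 in library 3. Esrra was at 71.0 FPKM, the next highest after library 2, in library 3, where 17 of the targets were lowest. After median-of-ratios scaling library 4, at 73.8, came next. The part of Esrra in the levels of these targets was not tested. Under median-of-ratios scaling 9 of the 22 genes were highest in library 2 and 10 in library 4 (13.6% and 27.5% of all genes).

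Of the 20 PGC-1alpha responsive muscle genes, 15 were highest in library 2 (23.2% of all genes), with a median deviation of 0.30, and 10 under median-of-ratios scaling (13.6%). They include Tnnt1 and Myl2, slow sarcomere genes (Myl2 at 744 FPKM against 131 to 302), and Slc2a4, the insulin-responsive glucose transporter, at 215 FPKM in library 2 against 184 to 203. Of these genes 5 are also slow fibre markers, and of the other 15, 10 were highest in library 2 (5 after that scaling). Ppargc1a itself, at 3.06 FPKM in library 2, was higher in libraries 5 and 1. Its part in the levels of these genes was not tested. Fndc5, the precursor of irisin, was at 68.4 FPKM in library 2 against 30.3 to 47.0, and the superoxide dismutase Sod2 at 116 against 79.9 to 112. Gpx1, a glutathione peroxidase, was highest in library 3 (68.7 FPKM against 32.1 to 45.1).

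**Figure D4:**
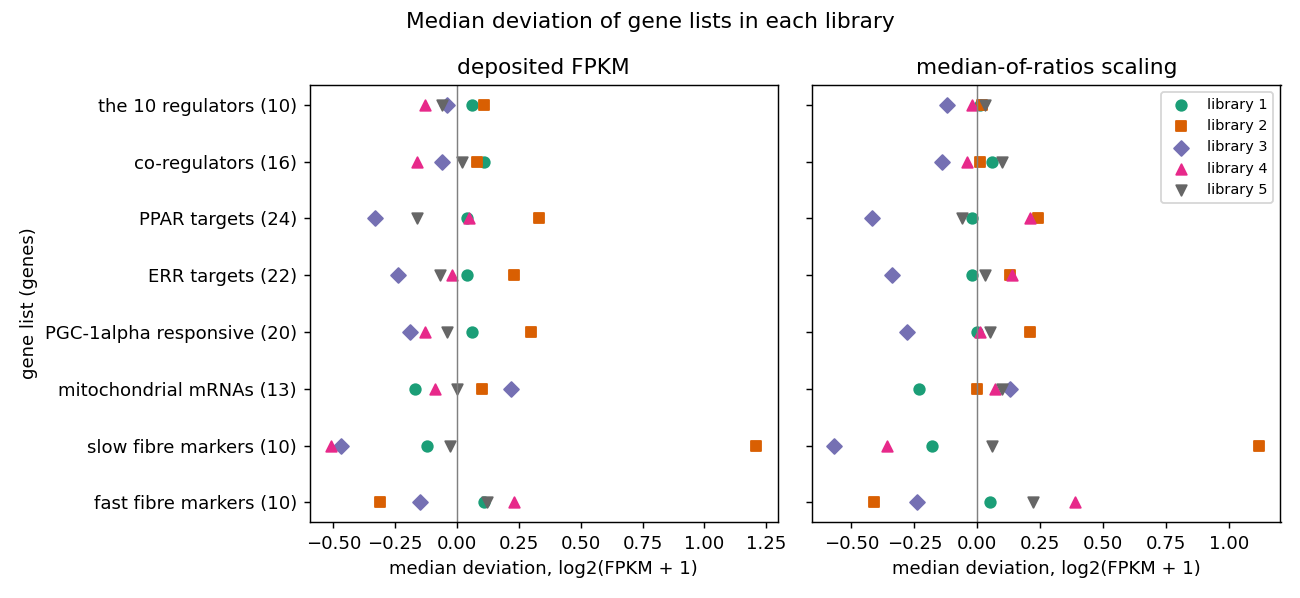
Median deviation (log2(FPKM + 1), each gene from its own mean) of gene lists in each library, for the deposited FPKM on the left and after median-of-ratios scaling on the right. Slow fibre markers reach 1.21 in library 2, the ERR targets 0.23, and the median of the 10 regulators stays between -0.13 and 0.11.

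The mitochondrial transcription and replication genes that stand beside Nrf1 and Tfam did not share a highest library. Of 19 genes, 18 reached 1 FPKM, of which 5 were highest in library 1, 5 in library 2 and 4 in library 4 (21.2%, 23.2% and 10.5% of all genes). Under median-of-ratios scaling 8 were highest in library 4 (27.5%). Of the 18, 13 exceeded counting error (88.1% of all genes) and 5, among them Tfb1m (3.37 ± 0.394 FPKM) and Tefm (9.91 ± 0.431), did not. The polymerase Polrmt was at 8.58 ± 0.591 FPKM and Tfb2m, its partner, at 16.6 ± 2.93, highest in library 1. Gabpa, the ETS factor known as NRF2, was at 5.41 ± 0.957 FPKM. The protease Lonp1, which degrades Tfam, was at 51.2 ± 2.09, and Nfe2l1, a different gene also called NRF1, at 172 ± 39.3. Messenger RNAs of mitochondrial DNA, whose transcription Tfam starts, were highest in library 3 for 8 of 13 and in library 2 for 5 (37.4% and 23.2% of all genes). Under median-of-ratios scaling these counts were 6 and 1, with 4 in library 5 (27.0%, 13.6% and 18.7%). Examples are mt-Co1 at 24948 FPKM in library 2 against 17873 to 21952, mt-Cytb at 15249 against 11509 to 13366 and mt-Nd1 at 14699 in library 3 against 11582 to 13852. Tfam lay between 8.44 and 9.47 FPKM in the same libraries. Mitochondrial genes have near-identical nuclear copies among which reads may be split, so these levels are uncertain. For example, mt-Co1 was at 20437 ± 2968 FPKM and mt-Co2 at 74.8 ± 16.9. Several of the 8 genes highest in library 3 were listed this low. They were mt-Co2, mt-Atp6, mt-Nd4l, mt-Nd3 and mt-Atp8, at means of 8.24 to 74.8 FPKM. Also low, mt-Co3 (51.2 FPKM) was highest in library 2.

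Genes whose profile over the 5 libraries was most like that of a member were sought by the root mean square (RMS) difference of the centred log2(FPKM + 1) values, over 5 libraries. For Ppargc1a these were Satb1, a chromatin organiser (0.035), the kinase Pkn2 (0.039), Brpf3 (0.039) and Slc25a32, a mitochondrial folate carrier (0.043), out of 8511 genes. For Esrrg they were Nuak1, a relative of AMPK (0.059), Klhl23 (0.081), 1700123M08Rik (0.083) and 0610040B10Rik (0.085), out of 4216. For Perm1 they were Tgfbr3 (0.032), Slc22a23 (0.033), Wdr92 (0.036) and Gucy1a1 (0.042), out of 8467. With so many candidates and 5 values each, close matches are common. Among members, the nearest to Ppargc1a was Ppara (0.123), to Esrrg it was Esrrb (0.137), and to Perm1 Ppard (0.143), just ahead of Esrrb (0.144).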

How the data were processed

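RNA of the 5 muscle samples was selected on poly-T beads and sequenced, per the labels' protocols. The authors deposited FPKM values for 35275 Ensembl identifiers, of which 34490 matched symbols and positions in GENCODE M21 (GRCm38, which mm10 also names). Per the submitters' processing notes, mm10 was the build and the tools were STAR 2.5, TopHat, HTSeq 0.6.1, edgeR and DESeq2, with no role or order stated. The sources used here do not give how strand and shared reads were handled. Because FPKM is relative to the library total, very abundant genes that gain share lower the rest.

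Whole reads were recovered from the FPKM for 20827 of 20840 genes above 0 (99.94%, within 0.001 reads). They summed to 99.9% of the totals, and 3 reads correspond to 0.118 to 0.180 FPKM at a length of 1 kilobase. Such floors cover counting error only. For Ppard the length found is not an annotated one. Where no annotated length gave whole reads, the shortest length that did was used. The recovered reads of Ppard are therefore a minimum, and its counting error and chi-square result rest on that length.

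Values were analysed as log2(FPKM + 1) for genes averaging 1 FPKM or above, using limma 3.58.1 (R 4.3.3): the variance of each gene over its abundance trend was compared with the F distribution (4 and 3.93 degrees of freedom, one-sided) and adjusted by Benjamini-Hochberg (0.05). The test was checked on simulated data. Fold changes on this scale understate those of low genes. A chi-square test set recovered reads against library totals, and 7 pairs of members were compared by an exact sign-flip permutation test over 32 patterns. The table could have held counts; since it holds FPKM, the count test of the design was not run. Python 3.11.15 with scipy 1.17.1 was used otherwise.

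Named were all members, the 3 genes of each of the 17 other lists with the highest mean, and for Ppargc1a, Esrrg and Perm1 the 4 nearest profiles among genes with at least 50% of that member's SD. Of the genes so chosen, 1 is not reported here. Other genes named were chosen after their values were seen. The members and lists were chosen with earlier results of these data known. Alternatives were another pseudocount (0.1), other filters, median-of-ratios scaling (which moves all genes by -0.10 to 0.16 on the log2 scale, by library), reads not divided by length, and leaving out each library. Leaving out libraries for the counting-error count and the list counts was added after seeing the data.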

Additional observations from a re-analysis of the deposited data

Results flagged for a closer look

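In 2 of the 10 regulators 1 library stood apart from the other 4 by Dixon's criterion, which chance meets in about 1 of 20 such groups; 25 series of 5 values were examined. Esrrb was at 4.35 FPKM in library 2, against 1.61 to 2.37 in the others, and its gap took 0.723 of the whole range (critical value 0.71). Nrf1 was at 3.26 FPKM in library 1, against 2.99 to 3.06, with a gap of 0.751 of the range. The Esrrb value rests on 347 reads, and the spread of Nrf1 did not exceed counting error.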

How the results depend on the processing

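No paired analysis was possible because the labels give 1 group. The limma test called 0 genes under every other filter, pseudocount and scaling tried, and 0 to 4 with 1 library left out, the 4 without library 3. The 7 pairs kept their direction in 49 of 49 alternative values, although leaving out 1 of 5 libraries raises the smallest possible p to 0.12. The log2 ratio of Ppargc1a to Ppargc1b fell to 0.02 with library 5 left out and was 0.95 on reads not divided by length. With 1 library left out, 7 members again exceeded counting error, a count given with no share of all genes beside it. At 10 FPKM or more, 3 members remained and all 3 were highest in library 2, and 1 of 5 coactivators and corepressors and 1 of 5 mitochondrial transcription genes were highest in library 1. The share of all genes at that filter was not computed, so these counts have no background beside them. Under median-of-ratios scaling 5 of 24 upstream genes were highest in library 1 and 9 of 22 ERR targets in library 2 (13.1% and 13.6% of all genes). Without library 1 the coefficient of variation of Nrf1 was 1.11%. Ppara, with 45 to 135 reads, is limited most by depth. With no untreated samples, no level here can be attributed to the vesicles.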
